A study of Homo sapiens with 30 samples.

Results

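The basal expression profile of MDA-MB-361 was compared with that of HCC1954, MDA-MB-231, T-47D and ZR-75-30, using the vehicle channel of two-colour whole-genome arrays. The members are the 6 vehicle samples of MDA-MB-361 out of 30 vehicle samples in all, chosen by their labelled cell line. Each line was given vehicle for 30 min or for 1, 3, 6, 12 or 24 h, with 1 array per time, and each sample pooled the cells of 3 cultures. The other channel of every array held BMP7-treated cells of the same line and time and was used only for a check.

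All 5 are established human breast cancer cell lines. MDA-MB-361 is a luminal line from a brain metastasis that carries the estrogen receptor and an amplified *ERBB2*. HCC1954 has amplified *ERBB2* without the estrogen receptor, ZR-75-30 has both, T-47D is a luminal line with estrogen and progesterone receptors, and MDA-MB-231 is a mesenchymal-like line that lacks these receptors. Luminal cells use ESR1, GATA3 and FOXA1 to keep their gene programme, whereas amplification of 17q12 raises ERBB2 together with neighbouring genes. MDA-MB-231 and T-47D were grown in less serum than is recommended for them, and the media differed between lines, so line and medium cannot be told apart.

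Values are log2 signals relative to the median of their array, so that 0 is the level of the median spot. The 6 MDA-MB-361 arrays had 61.7% to 69.0% of spots well above background and correlated with each other at r = 0.988 to 0.99 across probes. Their mean correlation with ZR-75-30 was 0.938, with T-47D 0.917, with HCC1954 0.9 and with MDA-MB-231 0.87. Probes share the array and its depth, so these correlations are descriptions. The arrays of MDA-MB-231 at 6 h and the 3 h and 24 h ones of T-47D stood farthest from their own lines, and leaving these 3 out gave 646 higher and 700 lower genes against every line, compared with 661 and 660 when they were included. In bulk samples fewer cells with an RNA and less of it per cell cannot be told apart. All 6 MDA-MB-361 arrays were scanned in the first of 2 scan periods, on 2 slides that held no other line, so slide and line cannot be told apart. All 8 luminal epithelial markers were well above background in MDA-MB-361, with a summed log2 level of 12.21 to 12.45. Of the markers of other cell types, 5 of 7 basal, 2 of 8 fibroblast, 3 of 7 leukocyte, 1 of 6 endothelial and 2 of 7 glial ones were, while others were not well above background on any of its arrays. Among these last were *KRT5* for basal cells, *COL1A2*, *COL3A1*, *DCN*, *LUM*, *PDGFRB* and *POSTN* for fibroblasts, *PTPRC*, *MS4A1* and *LYZ* for leukocytes, *PECAM1*, *CDH5*, *KDR* and *TEK* for endothelium, and *AQP4*, *MOG* and *OLIG2* for glia.

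A gene was called when the limma test gave an adjusted p below 0.05, the difference was at least 2-fold, and the signal was well above background in the higher group. Of 17842 genes with a RefSeq symbol, MDA-MB-361 was higher than every one of the other 4 lines for 661 genes (3.70%) and lower than every one for 660 (3.70%). Against the mean of the other lines, 2218 genes were higher (12.4%) and 2674 lower (15%). The median gene lay at -0.14 against the mean of the other lines, and the split between the directions depended on the scaling of the arrays. Against every line it was 823 higher and 544 lower after quantile normalization, 770 and 529 with centring on the 75th percentile, and 513 and 246 after normexp background correction. Within the first scan period alone, 637 genes were higher and 608 lower than in every line. These tests measure the spread of 6 arrays per line, taken at different times from pooled cultures, and not the spread among cell lines. With 1 mean per line in place of 6 arrays, limma called 0 genes in either direction against the mean of the other lines, with 560 higher and 654 lower at an unadjusted p below 0.05. The arrays of MDA-MB-361 lay above all 24 others for 595 of the 661 genes and below all of them for 598 of the 660. Over all genes, whatever the size of the difference, 5.29% lay wholly above and 6.73% wholly below.

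The genes named first are the 15 with the largest excess over whichever other line came nearest. *AMBP*, the liver precursor of alpha-1-microglobulin and bikunin, ranged from 7.53 to 7.87 with a median of 7.74 in MDA-MB-361 and from -4.77 to -0.78 in the other 24 arrays. Its 6 arrays therefore lay far above all the rest, and its mean was 469.7-fold that of the nearest line, ZR-75-30 (log2 difference 8.88 ± 0.23 SE, adjusted p = 6.03e-23). *ALOX15B*, a lipoxygenase acting on arachidonate, ranged from 6.69 to 7.18 (median 6.94) against at most 1.12 elsewhere, 244.2-fold over T-47D. *IGF2*, an insulin-like growth factor, ranged from 8.74 to 9.44 (median 9.09) against at most 1.76, 207.5-fold over T-47D. *TFAP2B*, an AP-2 family transcription factor, ranged from 8.64 to 9.02 (median 8.82), 65.1-fold over T-47D. T-47D, where all 6 arrays measured it with a median of 2.83, was the one other line with *TFAP2B* above background on more than 1 array. On the hg18 assembly the probe of *AMBP* lay at chr9:115863194-115863578, that of *ALOX15B* at chr17:7892907-7892966, that of *IGF2* at chr11:2106970-2107029 and that of *TFAP2B* at chr6:50919289-50919348.

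For 7 of these 15 genes no array of any other line was well above background, so that only a lower bound of the fold could be given. A bound sets the mean of the brighter line against the lowest signal that was well above background on each array of the dimmer line, or the gene's own signal where that was higher. Calls used the signals of the dimmer line as given, also where these were not above background. The bound of a called gene can therefore lie under 2-fold. A gene was read from the brightest of its probes, and bounds hold for that probe. Any other fold rests on at least 4 of the 6 arrays of the dimmer line being well above background, unless their number is given. *NXPH1*, a secreted ligand of neurexins, ranged from 3.28 to 3.95 (median 3.78) in MDA-MB-361 and was at least 45.3-fold higher than in every other line. *CHGB*, chromogranin B of secretory granules, ranged from 2.45 to 3.42 (median 3.2) and was at least 31.2-fold higher. *FSTL5*, a secreted follistatin-like protein, ranged from 2.39 to 3.25 (median 2.5) and was at least 23.2-fold higher. The other 4 genes not well above background elsewhere were *ARPP21*, a phosphoprotein of striatal neurons, *CTTNBP2*, a cortactin-binding protein, *PTH2R*, a parathyroid hormone family receptor, and *NUDT11*, an inositol polyphosphate phosphatase, with bounds from 11.6-fold to 21.8-fold. *NUDT11* has a near-identical paralog that the probe may also read. The 15 were completed by *LMO3*, a LIM-only transcriptional cofactor, *IGSF21*, a synaptic immunoglobulin protein, *MYT1*, a neural zinc finger factor, and *PKIA*, an inhibitor of protein kinase A. *PKIA* differed from most of them in that the other lines also expressed it, with medians of -0.05 to 1.21 against 6.78 in MDA-MB-361.

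**Figure D1:**
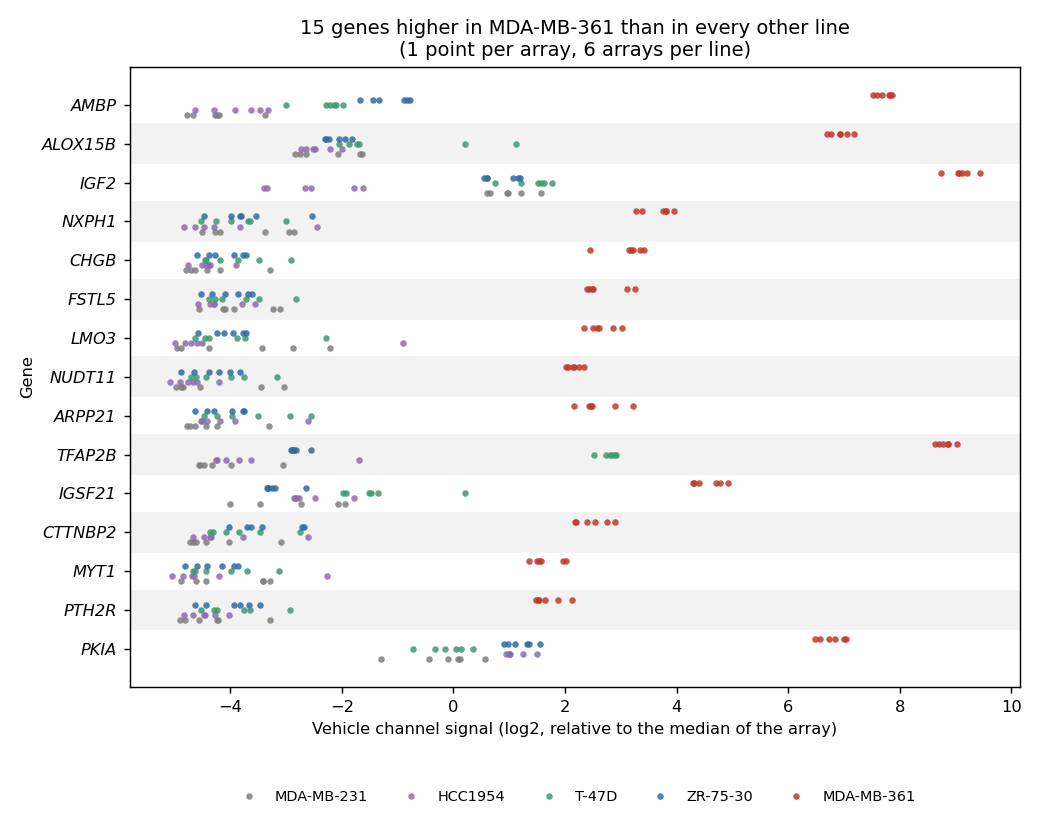
The 15 genes with the largest excess in MDA-MB-361 over every other line. Each point is the vehicle signal of 1 array on a log2 scale relative to the median of the array, and the 6 MDA-MB-361 points lie to the right of the 24 others for all 15 genes.

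The 15 genes with the largest deficit were expressed in all 4 other lines, on every array. A lower call itself required a signal well above background on at least 4 of 6 arrays of each of these lines. This difference from the higher genes is therefore largely set by the rule. *RPL39L*, a paralog of the ribosomal protein gene *RPL39*, ranged from -4.97 to -3.97 with a median of -4.29 in MDA-MB-361 and from 3.9 to 6.44 elsewhere. It was not well above background on any MDA-MB-361 array and was at least 71.8-fold lower than in ZR-75-30, the nearest line (adjusted p = 1.08e-25). *SASH1*, a signalling scaffold, ranged from -4.46 to -2.82 (median -3.93) against 3.95 to 5.52, at least 79.3-fold lower than in T-47D. *RAB32*, a small GTPase of organelle traffic, ranged from -3.41 to -2.97 (median -3.13) against 3.44 to 6.77, at least 73.7-fold lower than in ZR-75-30. On the probe used, 7 of the 15 were not well above background on any MDA-MB-361 array. Besides the 3 above these were *FBLIM1*, a filamin-binding adhesion protein, *TSPAN6*, a tetraspanin, *ANGPTL4*, a secreted lipase inhibitor, and *EIF5A2*, a translation factor isoform. Another probe was well above background on 6 MDA-MB-361 arrays for *SASH1* and on 4 for *FBLIM1*, so these 2 genes were measured there and their bounds are those of 1 probe.

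*CAVIN1*, the coat protein of caveolae, ranged from -1.89 to -1.32 (median -1.54) against 3.8 to 11.36 elsewhere, 78.4-fold lower than in ZR-75-30, without overlap. *CAV1*, the caveolin of the same structures, had a median of -1.88 in MDA-MB-361 and -2.32 in T-47D, so that these 2 lines did not differ in it beyond their spread (log2 difference 0.05 ± 0.37), although 1 of 6 T-47D arrays was well above background. *LGALS1*, galectin-1, ranged from 0.29 to 1.28 (median 1.01) against 6.15 to 11.21, 57.8-fold lower than in ZR-75-30. *TRIP6*, a LIM protein of focal adhesions, was 48.2-fold lower than in T-47D, and *TCIRG1*, a subunit of the vacuolar proton pump, 38.2-fold lower than in ZR-75-30. *PYGL*, glycogen phosphorylase of the liver type, ranged from -3.94 to -2.2 in MDA-MB-361, with all 24 other arrays between 3.04 and 7.21. No fold is given for it, since only 1 of 6 MDA-MB-361 arrays was well above background. *DNAJC15*, a mitochondrial co-chaperone, was 90.7-fold lower than in T-47D, with MDA-MB-361 values from -2.28 to -1.83, well above background on 3 of 6 arrays. All 15 genes in each direction were called against every line in the same direction under each alternative setting run for that comparison. Other probes of these genes had the same sign against the mean of the lines, but some were far smaller. For *IGF2* the second probe gave a log2 difference of 3.07 where the brightest gave 8.92, for *SASH1* the smallest was -2.45 against -8.52, and for *FBLIM1* the others gave -1.5 and -1.59 against -6.34. The second probe of *CAVIN1*, well above background on 12 arrays, gave -3.62 against -9.02 and was not called against every line.

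**Figure D2:**
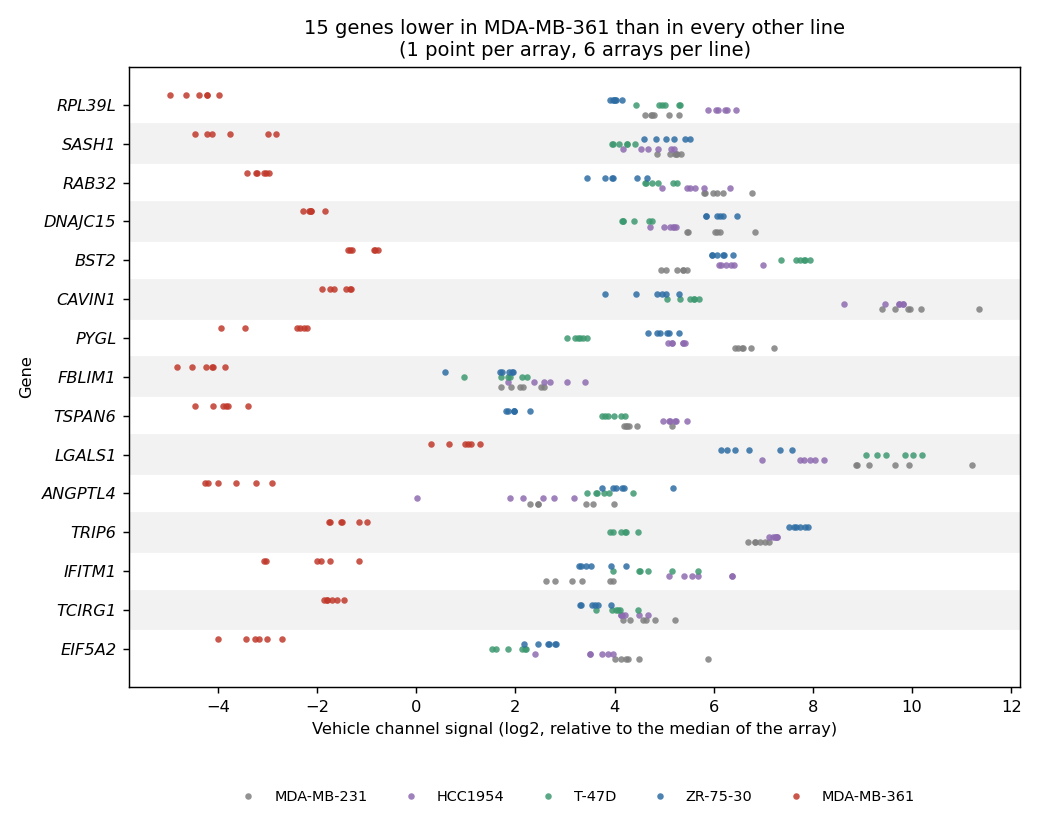
The 15 genes with the largest deficit in MDA-MB-361. Each point is the vehicle signal of 1 array on a log2 scale relative to the median of the array, and the 6 MDA-MB-361 points lie to the left of the 24 others for all 15 genes.

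Lists of genes with a common role were counted next, against the mean of the other 4 lines. The genes of a list that were higher or lower are to be read against 12.4% and 15% of all genes, and the median log2 difference of a list against -0.14 over all genes. Where bounds replaced lines without signal above background, the median over all genes was -0.01.

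**Figure D3:**
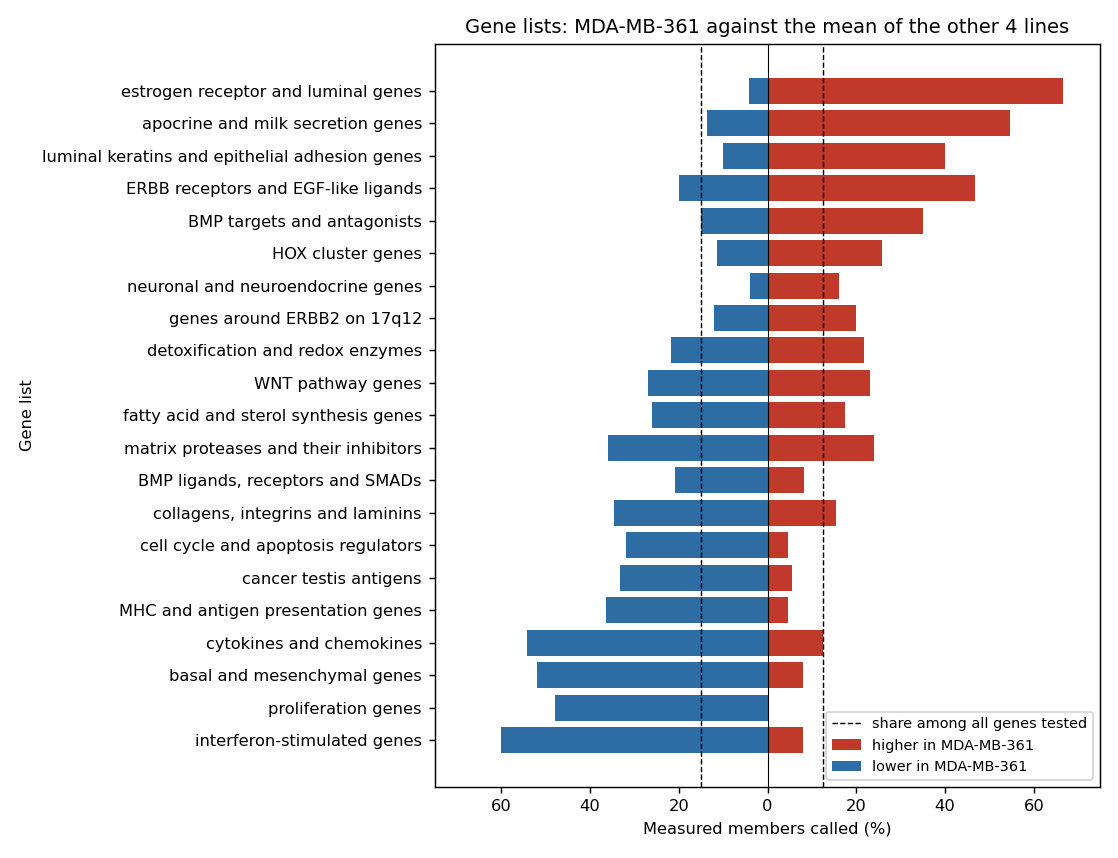
Shares of the measured members of 21 gene lists that were higher (to the right) or lower (to the left) in MDA-MB-361 than the mean of the other 4 lines, in percent. The dashed lines mark the 12.4% and 15% of all genes tested, and the bars reach farthest to the right for estrogen receptor and luminal genes (16 of 24) and farthest to the left for interferon-stimulated genes (15 of 25).

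Of 24 estrogen receptor and luminal genes, 16 were higher in MDA-MB-361 and 1 was lower (median 1.9, with bounds 1.79). *ESR1*, the estrogen receptor, ranged from 3.67 to 4.62 with a median of 4.34, next to 3.83 in T-47D, 2.81 in ZR-75-30 and -0.53 in HCC1954, and on this probe no MDA-MB-231 array was above background. Another probe of *ESR1* was well above background on 5 MDA-MB-231 arrays, and it gave a log2 difference from the mean of the lines of 0.74, not called, where the brightest gave 3.9. On the brightest, MDA-MB-361 and T-47D did not differ in it beyond their spread (0.54 ± 0.26, adjusted p = 0.0919). *GREB1*, an estrogen-induced coactivator, reached a median of 6.36, next to 5.6 in T-47D and 5.46 in ZR-75-30, which differed by less than 2-fold, but its second probe gave a log2 difference from the mean of 0.38 where the brightest gave 5.05. *PGR*, the progesterone receptor, had a median of -0.37 and lay far below the 4.58 of T-47D, and its higher call against the mean of the lines was turned to a log2 difference of -0.07 by normexp background correction. *GATA3*, a luminal transcription factor, had a median of 4.31 and lay between MDA-MB-231 (0.82) and HCC1954 (2.64) on one side and T-47D (6.3) and ZR-75-30 (6.55) on the other. *FOXA1*, a pioneer factor of the receptor, had medians of 8.38 in MDA-MB-361 and 8.31 in ZR-75-30. The members higher than in every other line were *MYB* and *TBX3*. *MYB*, a transcription factor of luminal cells, ranged from 6.63 to 7.67 (median 7.32), 3.27-fold over ZR-75-30 (adjusted p = 2.44e-06). *TBX3*, a T-box factor of mammary development, ranged from 4.24 to 4.58 (median 4.38), 5.28-fold over HCC1954. *PDZK1*, a scaffold of transporters, was the lower member, with a median of -2.59 and 1 of 6 arrays well above background, against 5.91 in T-47D.

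Apocrine and milk secretion genes were the list with the largest number of members above every line, 7 of 22, and 12 were higher and 3 lower than the mean of the lines (median 1.2). *SCGB2A2*, mammaglobin A, ranged from 5.9 to 6.33 (median 6.17), against a median of 4.79 in ZR-75-30 and no signal above background in the other 3 lines. Its partner in secretion *SCGB1D2*, lipophilin B, ranged from 4.08 to 4.45 (median 4.3) with 2.16 in ZR-75-30, and *SCGB2A1*, a second mammaglobin, from 0.79 to 1.09. These 3 genes lie together on chromosome 11, and MDA-MB-361 exceeded ZR-75-30, the nearest line, by 2.32-fold, 4.17-fold and 6.22-fold, the last with 3 of 6 ZR-75-30 arrays well above background. *LTF*, lactoferrin of milk, ranged from 0.03 to 0.54 (median 0.36) and was above background in no other line, at least 4.51-fold higher. Also above every line were *ALOX15B* and *ACSM1*, an acyl-CoA synthetase, the latter 2.1-fold over T-47D, where 3 of 6 arrays were well above background. *PIP*, prolactin-induced protein and a marker of apocrine cells, was lower than the mean of the lines, with a median of -0.97 against 9.44 in T-47D, and its difference turned to 0.32 without T-47D.

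*ERBB2*, the receptor kinase amplified in this line, ranged from 10.22 to 10.55 (median 10.31) in MDA-MB-361, with medians of 10.36 in HCC1954, 9.82 in ZR-75-30, 6.43 in T-47D and 5.21 in MDA-MB-231. MDA-MB-361 and HCC1954 did not differ beyond their spread (-0.09 ± 0.24, adjusted p = 0.787). The higher call of *ERBB2* against the mean of the lines depends on the probe. A second one, well above background on 28 arrays, gave a log2 difference of 0.82 where the brightest gave 2.37, and was not called. Of 25 genes around *ERBB2* on 17q12, 5 were higher than the mean of the lines and 3 lower, and the median difference was -0.06 (0.15 with bounds). *GRB7*, an adaptor next to *ERBB2*, had a median of 4.07, below the 7.81 of HCC1954 and close to the 4.39 of ZR-75-30. *PNMT*, the adrenaline-forming methyltransferase, was the one higher than in every line, with 5.24 to 5.59 (median 5.52), 14.2-fold over ZR-75-30. *ORMDL3*, a regulator of sphingolipid synthesis, and *TOP2A*, DNA topoisomerase II alpha, were lower than in every line. A second probe of *ORMDL3*, well above background on 30 arrays, gave -2.67 from the mean of the lines where the brightest gave -2.26. That probe was not called against every line. *TOP2A* ranged from 3.4 to 3.91 (median 3.67), 3.45-fold below T-47D.

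Among 15 measured ERBB receptors and EGF-like ligands, 7 were higher and 3 lower (median 0.89). *EGF*, a ligand of EGFR, ranged from 1.69 to 2.08 (median 1.88), 3.96-fold over T-47D, and *NRG2*, a neuregulin, was 2.73-fold over ZR-75-30. *ERBB3*, the kinase-impaired partner of ERBB2, had a median of 3.6, between 3.29 in T-47D and 4.07 in ZR-75-30. *EGFR* itself had a median of 1.65, below HCC1954 (4.28) and MDA-MB-231 (4.61) and above T-47D (1.04) and ZR-75-30 (-1.66). *HBEGF*, a heparin-binding ligand, was not above background on any MDA-MB-361 array.

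The BMP pathway, which the treatment of the other channel addressed, starts from ligands that bind type I and type II receptors, whose kinases activate SMAD1, SMAD5 and SMAD9. No member of the 24 ligands, receptors and SMADs differed from every other line. Against the mean, 2 were higher and 5 lower (median -0.31). *BMP7*, the ligand given in the other channel, ranged from 3.7 to 4.44 (median 4.26) in vehicle-treated MDA-MB-361. It lay between T-47D (2.68) and HCC1954 (6.06), was highest in ZR-75-30 (9.07) and on this probe not above background in MDA-MB-231. Its other probes gave log2 differences from the mean of 0.01 and -0.83 where the brightest gave 0.88, and none was called. *BMP4* ranged from -1.79 to -1.18 (median -1.47), which did not differ beyond the spread from HCC1954 (-0.05 ± 0.28), and was far below MDA-MB-231 (4.52) and T-47D (2.93). *BMPR1A*, a type I receptor, had a median of 3.28, with 2.44 to 3.25 in the other lines, and was not called. *BMPR1B*, a second type I receptor, was not above background on any array of MDA-MB-361, MDA-MB-231 or T-47D. *BMPR2*, the type II receptor, had a median of 1.58 among medians of 1.02 to 1.93. *SMAD1* had a median of 4.58 (log2 difference from the mean 1.03 ± 0.12) and *SMAD5* of 0.78 (-1.31 ± 0.2). The higher call of *SMAD1* depends on the probe, since a second one, well above background on 30 arrays, gave 0.48 and was not called.

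BMP target genes and antagonists had 7 of 20 members higher and 3 lower. *ID2*, an inhibitor of DNA-binding factors and a BMP target, ranged from 5.66 to 6.53 (median 6.28), 2.21-fold over ZR-75-30 (adjusted p = 0.00693). A second probe of *ID2*, well above background on 30 arrays, gave a log2 difference from the mean of 2.8 where the brightest gave 3.35. That probe was not called against every line. *MSX2*, a homeobox target, ranged from 3.04 to 4.78 (median 4.24), 3.54-fold over ZR-75-30. *ID1* had a median of 8.72 and *ID3* of 4.66, next to 8.8 and 5.1 in ZR-75-30, and neither was called. *SMAD6*, an inhibitory SMAD, ranged from 0.13 to 1.18. *FST*, follistatin, a secreted antagonist, was not above background in MDA-MB-361 or T-47D and had medians of 5.04 in HCC1954 and 5.35 in MDA-MB-231.

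Genes of proliferation had 0 of 23 members higher and 11 lower (median -0.98). *AURKA*, a mitotic kinase, ranged from 4.21 to 5 (median 4.63), with medians of 5.78 to 7.37 elsewhere, 2.46-fold below T-47D (adjusted p = 3.73e-07). *CCNB1*, cyclin B1, ranged from 5.11 to 5.97 (median 5.7), 3.1-fold below T-47D, and *CDC20*, an activator of the anaphase-promoting complex, was 2.51-fold below T-47D. All 6 MDA-MB-361 arrays lay below all others for these 3 genes and for *TOP2A*. The same held for 598 of the 660 genes lower than every line (90.6%). *MKI67*, the Ki-67 antigen, was not called, with a median of 2.34 among medians of 1.45 to 3.73. After quantile normalization 8 of the 23 were lower and 1 was higher.

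Of 22 regulators of the cell cycle and apoptosis, 1 was higher and 7 were lower (median -0.67). *MYC*, the oncogenic transcription factor, had the largest range over time of the genes that differed from every line and were above background on all 6 arrays: its 30 min and 1 h arrays had 4.27 and 4.92, the next pair (3 h, then 6 h) 2.24 and 1.27, and the last pair (12 h, then 24 h) 2.86 and 4. The highest of these values lay within the range of the other lines (4.16 to 8.6), so the groups overlapped, and the mean was 4.45-fold below T-47D (adjusted p = 0.000372). The lower call of *MYC* depends on the probe, since another one, well above background on 29 arrays, gave a log2 difference from the mean of the lines of 0.2 where the brightest gave -3.38, and was not called.

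Interferon-stimulated genes formed the list with the largest share of lower members, 15 of 25, while 2 were higher (median -2.01, with bounds -1.83). These genes are switched on by interferon through factors that bind the interferon-stimulated response element. Altogether 7 of them were lower than in every other line. *BST2*, tetherin, which holds budding viruses at the membrane, ranged from -1.38 to -0.76 (median -1.07) against 4.94 to 7.94, 79.8-fold below MDA-MB-231 (adjusted p = 3.97e-24). *IFITM1*, an antiviral membrane protein, ranged from -3.07 to -1.16 (median -1.95) against 2.61 to 6.37, 43.6-fold below MDA-MB-231 with 3 of 6 MDA-MB-361 arrays well above background. *IFI27*, a mitochondrial interferon-induced protein, ranged from -1.99 to -0.32 (median -0.66) against 1.45 to 10, 11.6-fold below ZR-75-30. *OASL* was 4.44-fold below HCC1954, *IFIT2* 2.73-fold below ZR-75-30 and *IFITM2* 2.3-fold below T-47D, while *IFIT3* was at least 1.34-fold below T-47D. A second probe of *IFIT2*, well above background on 13 arrays, gave -3.35 from the mean where the brightest gave -3.15. That probe was not called against every line. The 2 higher members were *USP18*, which removes ISG15 from proteins, with a median of 5.89 against 3.15 to 5.45, and *MX2*, with a median of 1.12 against 1.2 in MDA-MB-231 and 1.33 in T-47D.

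The promoters of these genes were searched for the core of that element. RefSeq (GRCh38.p14) held promoters for 17 of the 25, of which 4 were lower than in every line, and GAAA followed by any 2 bases and GAAA again was looked for in the 250 bases before each start, on both strands and with overlaps allowed. It was found in 11 of the 17, or 64.7%, in 4 of those 4 and 7 of the other 13, and in 3.07% of all 27305 promoters. The list holds interferon-stimulated genes whatever their level in MDA-MB-361, so its share describes the list and not the line. The following stretches end before the transcription start, the capitals mark the matches, and they are shown because these 4 genes were lower than in every line.
BST2 (chr19:17405715-17405790, minus strand): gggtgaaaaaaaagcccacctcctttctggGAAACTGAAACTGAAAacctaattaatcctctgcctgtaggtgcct
IFITM1 (chr11:313970-314039, plus strand): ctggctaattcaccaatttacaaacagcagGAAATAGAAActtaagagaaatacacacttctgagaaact
IFI27 (chr14:94110598-94110680, plus strand): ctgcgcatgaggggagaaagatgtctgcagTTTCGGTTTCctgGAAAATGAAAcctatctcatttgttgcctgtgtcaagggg
IFIT3 (chr10:89327811-89327914, plus strand): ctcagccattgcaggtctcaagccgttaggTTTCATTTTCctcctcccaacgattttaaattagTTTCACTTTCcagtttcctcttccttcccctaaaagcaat
In *BST2* the matches overlap, and in *IFI27* and *IFIT3* matches lie on the opposite strand. A match describes these letters and does not show that a factor binds there.

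Genes of the MHC and of antigen presentation had 1 of 22 members higher and 8 lower (median -0.97). *B2M*, the light chain of class I molecules, ranged from 5.37 to 5.62 (median 5.49) against 6.83 to 10.49, 3.06-fold below ZR-75-30. The class I heavy chain *HLA-B* was not called, with a median of 7.02, and its probe may also read related genes. *HLA-DQA1*, a class II chain with a near-identical paralog, ranged from 0.49 to 0.77 (median 0.64) and was on this probe at least 5.53-fold higher than in every other line. Its other probes were above background on at most 1 array in each of MDA-MB-231 and T-47D and on none in HCC1954 and ZR-75-30. *CIITA*, the class II transactivator, was in contrast not above background on any MDA-MB-361 array on the probe used, and on 1 array on another probe.

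Cytokines and chemokines had 13 of 24 members lower and 3 higher (median -1.95, with bounds -1.45). *IL18*, an inflammatory cytokine, was not above background on any MDA-MB-361 array and was at least 9.28-fold below ZR-75-30. *LIF*, a cytokine of the interleukin 6 family, ranged from -2.66 to -0.99 (median -1.99), 3.32-fold below T-47D with 2 of 6 MDA-MB-361 arrays well above background. Its second probe, well above background on 4 arrays, gave -0.78 from the mean where the brightest gave -4.55, and was not called. *IL32* and *CCL28* were also lower than in every line. In the other direction, *CXCL14* ranged from 2.61 to 3.25 (median 2.98) and was 27.5-fold over MDA-MB-231, where 2 of 6 arrays were well above background, and *CXCL5* ranged from 6.33 to 6.59 (median 6.46), 2.53-fold over ZR-75-30. Both are chemokines, for leukocytes of different kinds.

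Basal and mesenchymal genes had 13 of 25 members lower and 2 higher (median -2.02, with bounds -1.35). *VIM*, vimentin, the mesenchymal intermediate filament, ranged from -3.35 to -0.88 (median -1.62), against 0.46 in ZR-75-30, 1.04 in T-47D, 7.83 in HCC1954 and 10.23 in MDA-MB-231. It was the one member lower than in every line, 4.35-fold below ZR-75-30. *TWIST1*, a mesenchymal transcription factor, and *CDH2*, N-cadherin, were the 2 higher members. *CDH2* had a median of -0.48, below 0.23 in MDA-MB-231, and *TWIST1* of 1.81 next to 1.67 in T-47D.

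Of 20 luminal keratins and epithelial adhesion genes, 8 were higher and 2 lower (median 0.89). *CDH1*, E-cadherin, ranged from 9.83 to 10.1 (median 9.89), with medians of 8.1 to 9.18 in HCC1954, T-47D and ZR-75-30 and 1.52 in MDA-MB-231. Its arrays lay above all others, but the difference from ZR-75-30 (0.82 ± 0.23) was below 2-fold. *ESRP2*, an epithelial splicing factor, was higher than in every line, with 8.51 to 8.76 (median 8.6), 2.06-fold over ZR-75-30. *KRT8* (median 9.04) and *KRT18* (median 10.17) were not called and lay within the range of the other lines. *KRT19* (median 10.68) was close to T-47D (11.09) and ZR-75-30 (10.89) and above HCC1954 (4.67).

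The matrix lists had more lower than higher members. Proteases and their inhibitors had 9 of 25 lower and 6 higher (median -0.96), and collagens, integrins and laminins 9 of 26 lower and 4 higher (median -0.51). *TIMP2*, an inhibitor of matrix metalloproteinases, ranged from 2.89 to 3.2 (median 3.04), 5.25-fold below ZR-75-30. *PLAUR*, the urokinase receptor, was not above background on any MDA-MB-361 array, with medians of 5.99 in HCC1954 and 4.66 in MDA-MB-231. *COL1A1*, a chain of type I collagen, ranged from 2.11 to 2.37 (median 2.2), 3.36-fold over T-47D. Its partner chain *COL1A2* was not above background on any array of MDA-MB-361 or of any other line.

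Of 23 fatty acid and sterol synthesis genes, 4 were higher and 6 lower (median 0.04). *SCD*, the stearoyl-CoA desaturase, ranged from 7.48 to 7.95 (median 7.66), 2.23-fold over T-47D. The higher call of *SCD* depends on the probe, since its other probes gave log2 differences from the mean of the lines of -0.48 and 0.05 where the brightest gave 1.97, and neither was called. *ACLY*, ATP citrate lyase, ranged from 2.95 to 3.19 (median 3.12), 2.38-fold below ZR-75-30. *PLIN2*, a coat protein of lipid droplets, was at least 1.92-fold below ZR-75-30. Detoxification enzymes had 5 of 23 higher and 5 lower (median -0.17), and 4 were higher than in every line. *UGT2B7*, a glucuronosyltransferase of steroids and drugs, ranged from 1.3 to 1.93 (median 1.46) and was at least 10.5-fold higher than in every line. Its close paralog *UGT2B28*, which the probes may not separate, was at least 1.04-fold higher. *ALDH3B2* was 6.65-fold over ZR-75-30 and *CYP2J2*, an epoxygenase, 3.88-fold over ZR-75-30. *ALDH1A3*, a retinaldehyde dehydrogenase, ranged from -0.36 to -0.06 (median -0.27), 3.72-fold below T-47D and far below HCC1954 (9.04). Its second probe, well above background on 6 arrays, gave -2.21 from the mean where the brightest gave -4.61, and was not called.

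Of 25 neuronal and neuroendocrine genes, 14 were well above background on at least 4 arrays of any line, and 4 were higher and 1 lower than the mean (median -0.14). Besides *CHGB*, *NRCAM*, a neuronal adhesion molecule, was higher than in every line, with 5.07 to 5.23 (median 5.13), 7.03-fold over ZR-75-30. *L1CAM*, its relative, was lower than in every line, at least 1.71-fold, but its second probe (-0.69 from the mean, against -3.09) was not called. Of 18 measured cancer testis antigens, 6 were lower and 1 higher (median -0.91). The higher one was *MAGEA8*, which ranged from 6.46 to 6.9 (median 6.59), 4.07-fold over ZR-75-30. In the WNT list 6 of 26 were higher and 7 lower (median -0.29). *SFRP1*, a secreted WNT inhibitor, was 13.4-fold over MDA-MB-231, but the highest of the other arrays (3.4) lay above all its values, so the groups overlapped. *WNT7B*, a ligand, was 4.3-fold below T-47D. Its second probe, well above background on 7 arrays, gave -1.02 from the mean where the brightest gave -2.81, and was not called. Of 35 *HOX* genes 9 were higher and 4 lower (median 0.36, with bounds 0), and *HOXD9*, with a median of 0.21, was higher than in every line (2.23-fold over ZR-75-30).

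Each line was also compared with MDA-MB-361 apart. Against HCC1954, 2546 genes were higher (14.3%) and 3713 lower (20.8%), against MDA-MB-231 2918 (16.4%) and 4063 (22.8%), against T-47D 2513 (14.1%) and 2664 (14.9%), and against ZR-75-30 1945 (10.9%) and 2732 (15.3%). Against HCC1954 the split was 3113 higher and 2953 lower with centring on the 75th percentile, and against T-47D it was 2713 and 1005 after normexp correction. The largest fitted differences from HCC1954 were those of *LDHB*, a lactate dehydrogenase chain, at least 1990.1-fold higher, *TFAP2B* and *FMOD*, the collagen-binding fibromodulin, on the one side. No fold is given for *TFAP2B* and *FMOD*, each of which was well above background on 1 of 6 HCC1954 arrays. *LY6K*, a germline surface protein, *KLK8*, a secreted protease, and *RARRES1*, a retinoid-induced gene, stood on the other, at least 861.5-fold lower. *LDHB* had a median of 8.51 in MDA-MB-361 and 9.01 in MDA-MB-231 but was above background on no array of HCC1954 or ZR-75-30.

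The comparisons with the other lines named partly the same genes. *TFAP2B* was among the 3 largest excesses over HCC1954, MDA-MB-231 and ZR-75-30. Against MDA-MB-231 it was joined by *PRR15L* and by *SELENOP*, a selenium carrier in plasma, which were at least 1501.1-fold and 1243.0-fold higher. The deepest deficits there were those of *IGFBP7*, a binding protein of growth factors, *MSN*, moesin, which links actin to the membrane, and *ANKRD1*, a YAP target. None of these 3 was above background on any MDA-MB-361 array on the probe used, and another probe of *MSN* was on 1. Against T-47D *BCAN*, a brain proteoglycan, *BTG3*, an antiproliferative factor, and *AMBP* led on the higher side. *GNG11*, a G protein gamma chain, *AUTS2*, a regulator of neural development, and *PIP* led on the lower side. For *BCAN* and *AUTS2* this depends on the probe. A second probe of *BCAN*, well above background on 24 arrays, gave a log2 difference from the mean of the lines of -0.29 where the brightest gave 6.76, and for *AUTS2* these were 0.24 and -8.06, neither second probe being called. Against ZR-75-30 *LDHB*, *TFAP2B* and *MXRA8*, a matrix-associated receptor, were highest, while *TSPYL5*, the growth factor *FGF4* and *CBR1*, a carbonyl reductase, were lowest. On its brightest probe *BCAN* was also 2.06-fold higher than in ZR-75-30, where its median was 5.56 against 6.6 in MDA-MB-361.

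Called genes were also counted by chromosome. Against the 3.70% of all genes in each direction, 9.4% of 298 genes on chromosome 13 were higher than in every line and 0.671% lower. On chromosome 16 the shares were 7.87% and 1.44% of 762 genes, on chromosome 4 7.01% and 1.17% of 685, and on chromosome 12 6.26% and 0.418% of 958. The reverse held on chromosome 14, with 1.8% higher and 9.37% lower of 555 genes, on chromosome 5, with 2.39% and 6.91% of 796, and on chromosome 11, with 2.8% and 6.64% of 1070. The genes of a chromosome are not independent of each other and copy number was not measured, so these are descriptions.

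**Figure D4:**
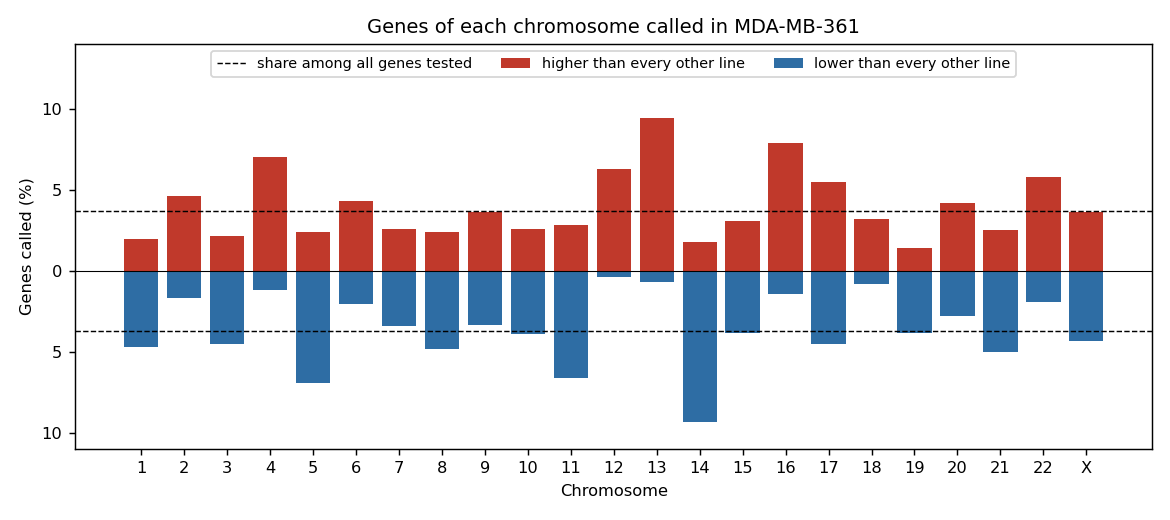
Shares of the genes of each chromosome that were higher (upper bars) or lower (lower bars) in MDA-MB-361 than in every other line, in percent. The dashed lines mark 3.70% of all genes, and chromosomes 4, 12, 13 and 16 reach above the line mainly upward, chromosomes 5, 11 and 14 mainly downward.

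Runs of 15 neighbouring genes, each well above background on at least 15 of the 30 arrays, were then described by their median difference from the mean of the other lines. Over 12790 overlapping runs this median was -0.19 in the middle, with -1.34 and 1.11 as the 1st and 99th percentiles. The highest run, with a median of 1.74, lay on chromosome 6 from *PCMT1* to *SYNE1* (start positions 150152883 to 152484745 on hg18) and contained *ESR1*. A second high run, with a median of 1.52, lay on chromosome 17 from *GH1* to *HELZ*, where 7 of 15 genes were higher than in every line. The lowest runs included the X chromosome from *APOOL* to *GLA* (-2.05), with *TSPAN6* among its 7 genes lower than in every line. The run on chromosome 14 from *PYGL* to *CDKN3* (-1.79) held *BMP4* as well.

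Chromosome 17 alternated between such runs. Low runs lay from *RDM1* to *DUSP14* (-1.8), from *MSL1* to *KRTAP3-1* (-1.78) and from *HCRT* to *TUBG2* (-1.93), on both sides of *ERBB2*. Of the 15 genes in each, 7, 6 and 7 were lower than in every line, and *TOP2A*, *CAVIN1* and the neighbouring signal transducers *STAT3*, *STAT5A* and *STAT5B* were among their members. *ERBB2*, with its log2 difference of 2.37 ± 0.19 on the brightest probe and 0.82 on the other, lay between the first and the second of them.

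**Figure D5:**
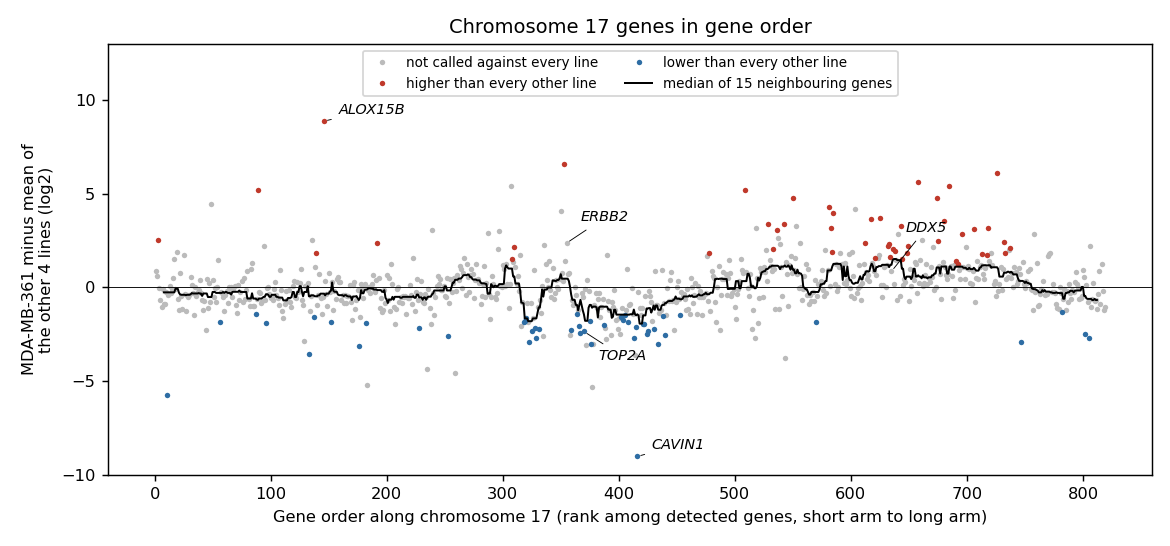
Log2 difference between MDA-MB-361 and the mean of the other 4 lines for 819 detected genes of chromosome 17, placed in gene order along the horizontal axis. The black line is the median of 15 neighbouring genes, which falls to -1.8 before *ERBB2* and to -1.78 and -1.93 after it, and rises to 1.52 from *GH1* to *HELZ*.

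The 6 times were used as replicates, so their spread was described as well. Among 12456 genes well above background on all 6 arrays, the median SD over times was 0.16 and 5.29% spanned 2-fold or more. The corresponding shares were 8.91% of 651 genes higher than every line and 4.53% of 530 genes lower. After *MYC*, the widest were *FNDC1*, a matrix gene, from -1.27 at 30 min to 1.46 at 6 h, and *TAAR5*, an amine receptor, from 5.42 at 1 h to 2.79 at 24 h. *FOXJ1*, a factor of ciliated cells, lay at 1.51 to 2.01 in the first 3 times and at -0.11 at 24 h. With 1 array per time no change with time was tested. The first 4 times were on 1 slide and the last 2 on another, so that time and slide cannot be told apart there.

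The BMP7-treated channel of the same arrays gave a second reading of each line. Of the 661 genes higher than every line, 566 (85.6%) were called there too, and of the 660 lower genes 543 (82.3%). No called gene had the opposite sign against the mean of the lines in that channel. Both channels share the array and the time, so this is not an independent sample. The median log2 ratio of BMP7 over vehicle in MDA-MB-361 was -0.06 for the higher genes and 0 for the lower ones. Averaged over the 6 times, 1 of the 661 higher genes and 0 of the 660 lower genes had a ratio of 2-fold or more in either direction. Of all 12919 genes well above background in MDA-MB-361, 6 were 2-fold up and 0 were 2-fold down, with a median of -0.01. Of the 660 lower genes, 561 were above background in MDA-MB-361, and among these 0 were 2-fold up and 0 were 2-fold down. The ratio of *RPL39L*, which was not, was 0.0 at all 6 times.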

How the data were processed

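Gene expression was measured on 30 two-colour Agilent whole-genome arrays, with vehicle-treated cells in the Cy3 channel and BMP7-treated cells in the Cy5 channel and no dye swaps. Per the file headers, the authors' spot intensity values came from Feature Extraction 9.5.1.1, which detrended the background, replaced signals not above background and normalized the dyes. The same software wrote the deposited log10 ratio of Cy5 over Cy3, used for the BMP7 ratio alone. Coordinates in the files are hg18. Here, the deposited intensity of the Cy3 channel was put on a log2 scale and centred on the median of each array, leaving out control spots and spots marked as outliers. Spots replaced by Feature Extraction have an upper limit rather than a measured level, and 6 saturated spots were kept. Of 41000 probes, 27745 were matched to a RefSeq symbol, 23958 by accession, 2755 by symbol and 1032 by synonym, and 13255 were not matched. A gene was read from the brightest of its probes over all arrays.

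All 30 arrays entered 1 fit in limma 3.58.1 (R 4.3.3; Python 3.11.15 elsewhere), with line as the group and Benjamini-Hochberg adjustment over all probes. A call needed an adjusted p below 0.05, a 2-fold difference and a spot flagged as well above background on at least 4 arrays of the higher line (12 of 24 when the other lines' mean was higher). On simulated data for the comparison with the mean of the lines (38723 probes), 176 of 200 changed probes were recovered with 13 false calls. These were calls by adjusted p alone, without the background rule, and 7 of the false ones reached 2-fold. The simulated noise was independent between arrays, whereas real arrays on a slide correlated at 0.265.

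Named are the 15 genes per direction with the largest difference from the nearest line, the first 3 per direction against each line, and the list members that differed from every line or define the line. Members of the rule and lists were chosen with earlier results of these data known. Lists are described by counts and medians. *XIST* and Y-linked genes were left out, and results for some genes are not reported here. The number of arrays limits the precision. Alternatives covered background correction, normalization, filters, probe choice, time, slide, scan period, fold threshold, arrays and lines left out, and the BMP7 channel. Samples of a line with the same time deviated together only weakly (mean r with MDA-MB-361 0.017 to 0.126). At other times the mean r was -0.025 to -0.003. Time points were not treated as pairs.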

Additional observations from a re-analysis of the deposited data

Results flagged for a closer look

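Of 142 named genes tested in MDA-MB-361, 9 had 1 array far from the other 5, by a gap past Dixon's critical value for 6 samples. Chance gives such a gap in about 1 in 20 groups. The values are log2 signals relative to the array median.

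At 24 h, *CHGB* lay at 2.45 where the next lowest array had 3.15, *PNMT* at 5.24 against 5.51, and *VIM* at -3.35 against -1.79. At 6 h, *ETS1*, a transcription factor of mesenchymal cells, lay at -0.8 where the next highest array had -3.89. *DNAJC15* lay at -1.83 against -2.12 and *FBXO32*, an atrophy-linked ubiquitin ligase, at -3.23 against -2.13 at the same time. At 12 h, *CDH1* lay at 10.1 where the next highest array had 9.91, and *PRUNE2* at 1.91 against 1.44. At 1 h, *TFF3*, a trefoil peptide of secretory epithelia, lay at 10.06 against 9.82. *ETS1* was well above background on 1 of its 6 arrays and *DNAJC15* on 3.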

How the results depend on the processing

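Of 248 counts of called genes under alternative settings, 227 stayed within 1.5 times the main count and 21 did not. After normexp correction, lower genes numbered 1593 against the mean of the lines, 246 against every line, 2640 against MDA-MB-231 and 1005 against T-47D, and higher genes 1250 against ZR-75-30. At 3-fold the counts of higher and lower genes were 1311 and 1294 against the mean, 351 and 236 against every line, 1624 and 2189 against HCC1954, 1433 and 1392 against T-47D, and 1044 and 1380 against ZR-75-30, with 2503 lower against MDA-MB-231. With 1 mean per line limma called 0 and 0 (560 and 654 at an unadjusted p below 0.05). Without T-47D 1199 genes were lower than every line, and without ZR-75-30 994 were higher and 1084 lower, fewer lines being required. Without each MDA-MB-361 array in turn, higher and lower genes numbered 2203 to 2224 and 2643 to 2707 against the mean and 654 to 662 and 652 to 666 against every line. With time as a replicate block, 658 of the 661 higher and all 660 lower genes were called again. With slide as a random block 644 were higher and 623 lower.

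Over 183 named genes and 4575 values, 4246 kept direction and call, 267 lost and 41 gained the call, and 21 turned in sign. Under normexp these were *BMP7* (-0.0), *BMPR2* (-0.03) and *PGR* (-0.07), and with a mean over probes *KRT18* (-0.11). *BMPR2* gave -0.03 with scan period as a term, -0.03 in the first period alone and -0.04 without the 3 arrays farthest from their lines, a setting chosen after seeing the data. Without HCC1954, *EGFR* gave 0.33, *GATA3* -0.17 and *MKI67* -0.05. Without MDA-MB-231, *BMP7* gave -1.72, *EGFR* 0.44, *GATA3* -0.79, *GRB7* -0.59, *KRT18* -0.17, *KRT8* -0.65 and *SMAD6* -0.11. Without T-47D, *BMPR2* gave -0.05, *BTG3* -0.41, *MKI67* -0.22 and *PIP* 0.32. Apart from the settings with fewer lines or arrays or a stricter threshold, the cause was not tested. Other probes above background on at least 6 arrays had the same sign for 287 of 298 in the higher genes and 329 of 349 in the lower ones. Only 148 of the 298 and 166 of the 349 were themselves called against every line in that direction. Against the mean of the lines, 0 and 8 were called in the opposite direction. Levels near the lowest signal well above background, -2.81 to -0.86 by array, limit what could be measured.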

Other observations

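The next 12 genes by the same ranking were, on the higher side, led by *SMTNL2*, a smoothelin-like protein, which was at least 14.7-fold higher than in every line. *RASSF2*, a RAS-binding tumour suppressor, ranged from 5.16 to 5.52 (median 5.36) against at most 0.88 elsewhere and was 42.8-fold over HCC1954. *FAM3B*, a secreted cytokine-like protein of pancreatic islets, ranged from 5.62 to 5.89 (median 5.7), 32.3-fold over ZR-75-30. *SCGN*, the calcium sensor secretagogin, ranged from 3.38 to 4.07 (median 3.56), 33.2-fold over ZR-75-30. *TAT*, the liver tyrosine aminotransferase, was 31.6-fold over T-47D with 3 of 6 arrays there well above background, and *FOXL2*, an ovarian transcription factor, 24.9-fold over HCC1954. *AKR1C4*, *DMRT3* and *ECEL1* were well above background in no other line, with bounds of 10.5-fold, 8.54-fold and 10.1-fold. *AKR1C4* has close paralogs that its probe may also read.

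On the lower side, *TNFAIP2*, a gene induced by tumour necrosis factor, ranged from 0.1 to 0.51 (median 0.36) against 4.85 to 8.96, 30.0-fold below ZR-75-30. *RUNX2*, a transcription factor of bone, ranged from -2.83 to -0.44 (median -1.55) against 2.23 to 5.42, 21.1-fold below ZR-75-30. Its other probes, well above background on 7 and 5 arrays, gave -1.51 and -0.34 from the mean where the brightest gave -5.1. Neither was called. *BHLHE40*, a repressor of the circadian clock, was 23.6-fold and *FHL2*, a LIM-domain cofactor, 22.8-fold below ZR-75-30. *CARD6*, *ELAC1*, *STXBP2* and *TMEM139* were not well above background on any MDA-MB-361 array, while all 24 others measured them. No groups overlapped for these genes, as for 598 of the 660 genes lower than every line.

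A second probe of *BBC3*, a BH3-only inducer of apoptosis, differed from the mean of the lines by 1.21 where the brightest probe differed by -1.19. The direction of *BBC3* therefore depends on the probe.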
